A study of Mus musculus with 4 samples.

Results

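Slc1a3-positive, Aqp4-low glia of the postnatal mouse brain were described by MERFISH, an imaging assay in which probes for a set of genes are read over several rounds, so that single RNA molecules are counted where they lie in the tissue. A cell belonged to this class if it held at least 20 gene counts, of which 5 or more were Slc1a3 and 3 or more Sox9, with at most 1 count of Aqp4, fewer than 3 of Csf1r, fewer than 5 of Pdgfra and fewer than 5 of Cldn5. These limits found 12536 of the 794833 cells with 20 or more gene counts. Astrocytes, the class they were set against, shared the limits on Slc1a3 and Sox9 but held 3 or more Aqp4 counts, and numbered 55949. The 6 genes of these limits were described and not tested between the classes, although Cldn5 also entered 2 measures of the surroundings.

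The cells came from 4 coverslips, 2 with female and 2 with male brains. Each coverslip carried a pair of coronal sections, one from a Cx3cl1(-/-) mouse and one from a wild-type mouse, aged 5 days, that had undergone a lesion of the right whiskers 24 h earlier, at postnatal day 4. Every section therefore came from a lesioned animal. The cells fill most of a coronal brain section, some with pieces missing, although the labels name the tissue as barrel cortex, and the files do not say which section, hemisphere or region a cell lay in. Sections were told apart by position, giving 8, and neither genotype nor hemisphere was assigned. Because the labels do not say whether different coverslips hold different litters or animals, p-values refer to these sections and coverslips. Those of the gene tests also rest on a spread shared over genes, so they do not follow each gene's own spread over coverslips alone.

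Slc1a3 encodes the glutamate transporter GLAST and Sox9 a transcription factor of the glial lineage, and both are made by radial glia, by neural stem cells of the ventricular wall and by astrocytes. Aqp4, the water channel of astrocyte endfeet, accumulates as astrocytes mature after birth. Radial glia and their descendants in the subventricular zone and the hippocampus are known for high Vim (vimentin) and Sox2, and Wnt signals and their secreted antagonists are known regulators of these niches.

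Median gene counts per cell were 163 and 193 on the female coverslips and 142 and 124 on the male coverslips in Aqp4-low glia, against 278, 315, 226 and 206 in astrocytes in the same order. Aqp4-low glia were thus read less deeply on every coverslip. Their median cell volume was also smaller, between 682 and 790 units against 923 to 1042 units in astrocytes. Differences in levels below are therefore given as counts per 100 counts of the 134 tested genes. Depth was matched in 2 ways, by keeping cells of 150 to 250 gene counts and by thinning cells to 100 counts before gating. Thinning took only cells past the Slc1a3 and Sox9 limits with at least 100 counts, and all limits were then applied again. The classes themselves thus changed, with Aqp4-low glia at 33.2% of gated cells after thinning and 16.3% before. At 150 to 250 counts all 11 higher and 4 of the 12 lower genes below were still called, and after thinning 7 and 1 were. Blank barcodes, assigned to no gene and read only by mistake, took between 1.16% and 1.48% of all counts. Cell identifiers were plain row numbers on 3 coverslips, and no cell of one coverslip had the volume and counts of a cell of another.

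The limits decided who was a member, and the cells close to them were many. Of the members, 6209 held no Aqp4 count and 6327 held 1, while 5974 cells that met every other limit held 2 and fell outside both classes. Sfrp1 was at 1.46 and 1.27 counts per 100 in members with 0 and 1 Aqp4 counts, and at 1.05 in the cells with 2. Median Slc1a3 counts per cell were 10 to 12 in Aqp4-low glia and 16 to 18 in astrocytes, and those of Sox9 were 5 to 6 against 6 to 9.

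The map of the sections showed where the cells lay. In all 8 sections Aqp4-low glia formed narrow curved bands, in several also elongated compact masses, and the remainder were scattered through the tissue. Parts of the bands and masses lay beside cells with 10 or more counts of Ezr, which encodes ezrin, a linker of membrane and cytoskeleton made abundantly by ependymal and choroid plexus cells. These Ezr-high cells numbered 1262 to 2998 per coverslip. They are named by that gene alone, since a single marker does not settle their type.

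**Figure D1:**
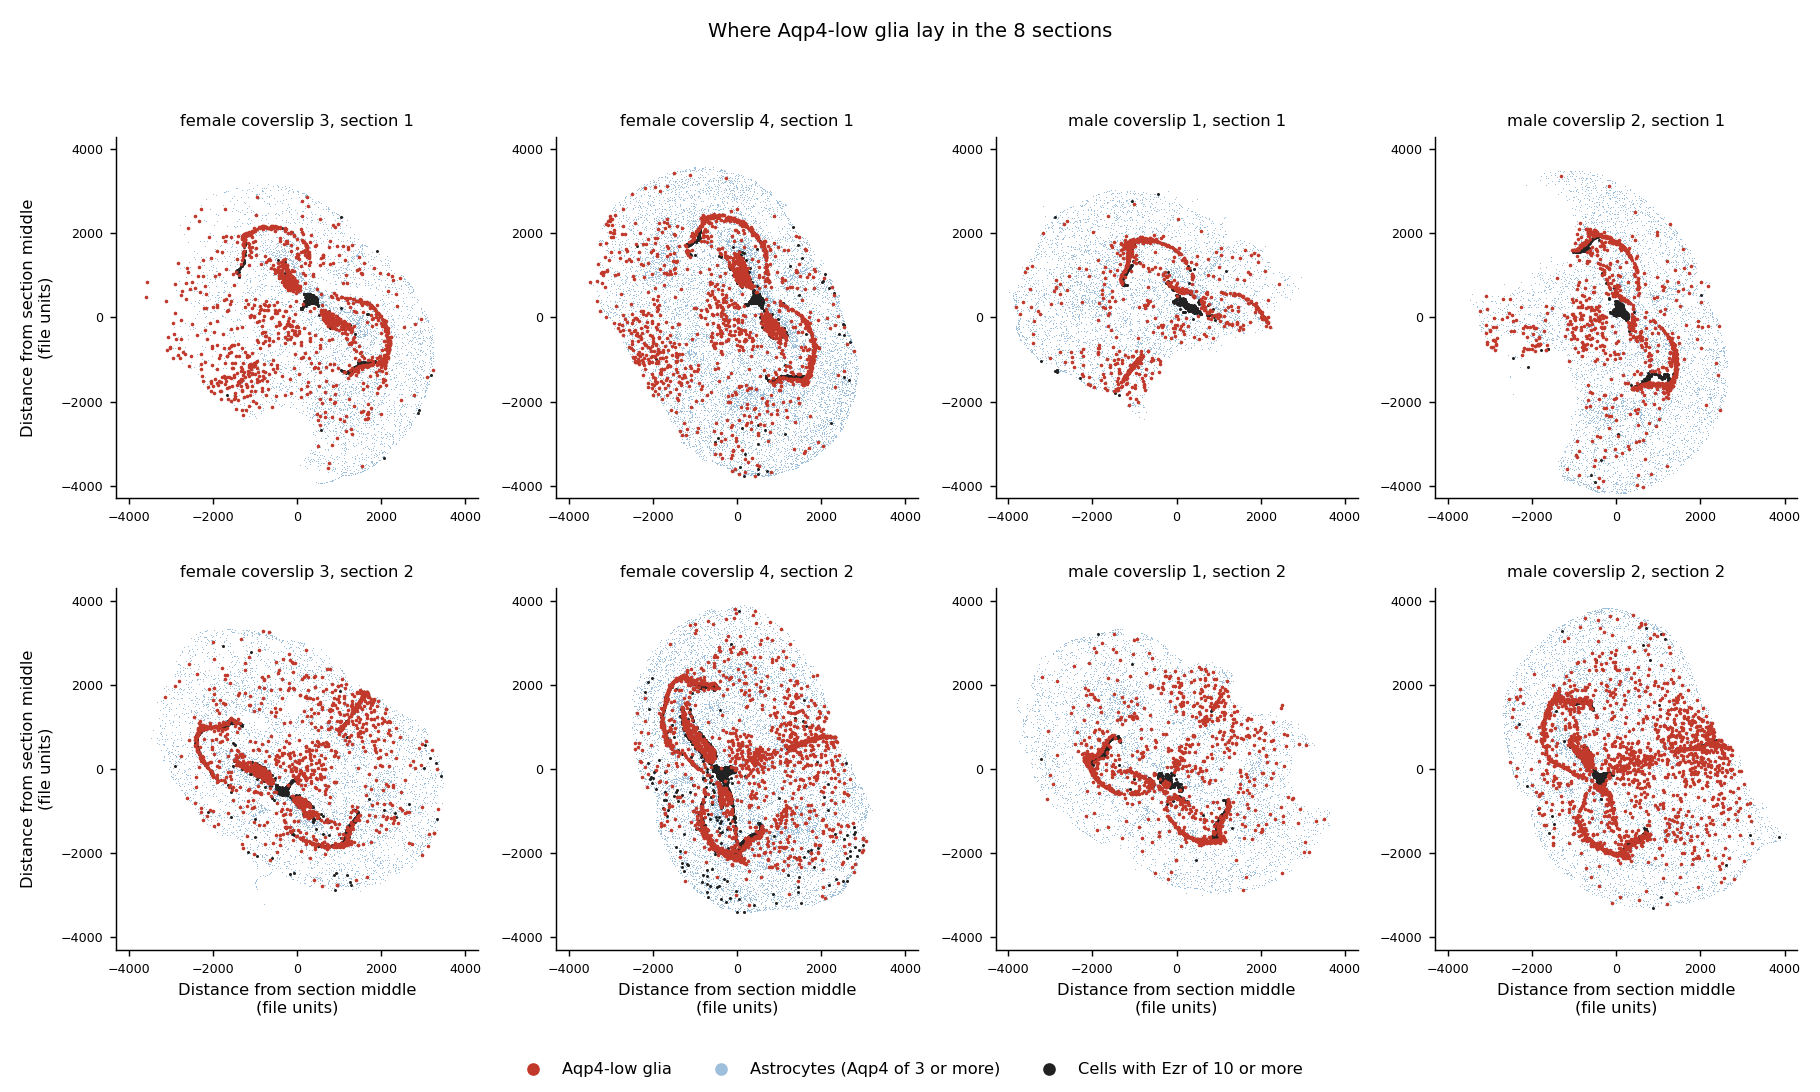
Each panel shows one section, with both axes giving the distance from the section's middle in the coordinate units of the files. Red points are Aqp4-low glia, pale blue points astrocytes and black points cells with 10 or more Ezr counts. The 12535 Aqp4-low glia within sections form curved bands, and in several sections elongated masses, partly beside the black points, with others scattered.

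Aqp4-low glia lay closer to Ezr-high cells than astrocytes did in every section. The median distance to the nearest Ezr-high cell other than the cell itself ranged from 33.1 to 198 units over sections, with a median of 96.1, in Aqp4-low glia, against 190 to 571 units, with a median of 403, in astrocytes. The lowest astrocyte value lay below the highest value of Aqp4-low glia, but within each of the 8 sections Aqp4-low glia were nearer. The mean over sections was 103 ± 57.2 units in Aqp4-low glia and 403 ± 130 units in astrocytes (SD, n = 8 sections). The exact two-sided sign-flip permutation test over 8 sections gave p = 0.00781, the smallest it can give, and an adjusted p of 0.0111 over the 17 measures of position and neighbours. Some Ezr-high cells were themselves glia, 38 to 272 Aqp4-low glia and 101 to 581 astrocytes per coverslip. With only Ezr-high cells of neither class the distances were 132 ± 52.5 and 553 ± 112 units, again lower in 8 of 8 sections.

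They also lay deeper in the tissue and in denser surroundings. The median distance to the section edge was 1350 ± 81.4 units in Aqp4-low glia and 1134 ± 120 units in astrocytes, higher in 8 of 8 sections. Around Aqp4-low glia 37.2 ± 2.90 other cells lay within 50 units, against 24.1 ± 2.03 around astrocytes, and the ranges of 33 to 43 and 22 to 28 did not overlap. The distance to the nearest cell with 5 or more counts of Cldn5, the claudin of endothelial tight junctions, was 42.4 ± 4.66 units and 38.3 ± 2.21 units. Each of these 3 differences had an adjusted p of 0.0111 in the same exact permutation test, but the vessel distance was not called among cells of 150 to 250 gene counts. The limit on Cldn5 applied to Aqp4-low glia and not to astrocytes. With the same limits on astrocytes the vessel difference was 2.98 units, higher in 7 of 8 sections (exact permutation, adjusted p = 0.0306). The distance to the nearest cell with 3 or more Lyve1 counts, a marker of border macrophages and lymphatic endothelium, was 284 ± 141 units and 229 ± 55.3 units and did not pass (adjusted p = 0.0854, exact permutation). The tests of position and neighbours flip each of the 8 sections separately, although sections of the same coverslip are not independent. With the 4 coverslips as the unit no measure can pass, since the smallest exact p is then 0.125.

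**Figure D2:**
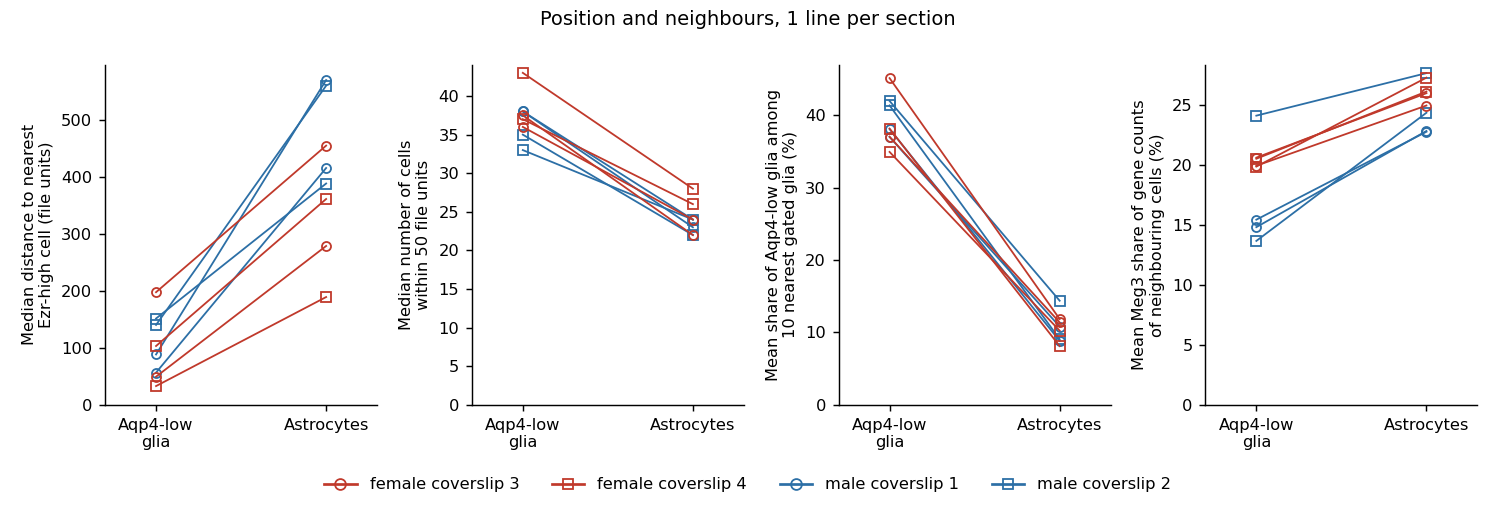
Each line joins Aqp4-low glia (left) and astrocytes (right) of one section, for the median distance to the nearest Ezr-high cell in file units, the median number of cells within 50 file units, the mean percentage of Aqp4-low glia among the 10 nearest gated glia and the mean Meg3 percentage of the gene counts of neighbours. All 8 lines run the same way in every panel, with means of 103 and 403 units, 37.2 and 24.1 cells, 39.2% and 10.6%, and 18.6% and 25.2%.

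Aqp4-low glia had each other as neighbours. Among the 10 nearest cells past the Slc1a3 and Sox9 limits, 39.2% ± 3.33 were Aqp4-low glia around an Aqp4-low cell and 10.6% ± 2.01 around an astrocyte (adjusted p = 0.0111, exact permutation over 8 sections, higher in 8 of 8). The section ranges of 34.9% to 45.1% and 8.12% to 14.4% did not overlap. Cells of neither class within 50 units held fewer counts, with a median of 120 ± 41.9 around Aqp4-low glia and 201 ± 49.8 around astrocytes. This lower depth of the surroundings was present in 8 of 8 sections, and its part in the number of cells with 0 or 1 Aqp4 counts was not tested.

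The neighbours also differed in their neuronal genes. Meg3, a long noncoding RNA abundant in neurons, took 18.6% ± 3.58 of the gene counts of cells around Aqp4-low glia and 25.2% ± 1.85 around astrocytes. Cux2, a transcription factor of upper cortical layers, was at 0.415 ± 0.0713 counts per 100 gene counts around Aqp4-low glia and 0.718 ± 0.174 around astrocytes. Rorb, a marker of cortical layer 4, was at 0.311 ± 0.0352 around Aqp4-low glia and 0.478 ± 0.0997 around astrocytes, and Bcl11b, of deep-layer and striatal neurons, at 0.715 ± 0.128 and 0.977 ± 0.0689. All of these, with Cldn5 and Sox10, were lower around Aqp4-low glia in 8 of 8 sections with an adjusted p of 0.0111 (exact permutation). Only Aqp4-low glia were limited in Cldn5 themselves. With the same limits on astrocytes the Cldn5 difference in neighbours was -0.411 in place of -0.516, still lower in 8 of 8 sections. For Rorb the direction depended on the summary, since section medians in place of means over cells gave a value 0.0513 higher around Aqp4-low glia. Gad2, an enzyme of GABA synthesis, was lower in 7 of 8 sections, at 0.825 ± 0.138 and 0.927 ± 0.150, with an adjusted p of 0.0204, and lost its call when any of 3 coverslips was left out. Sox10 lost its call among cells with Meg3 under 5% of their counts (adjusted p = 0.0715). Slc17a6, Tcf7l2 and Etv4 did not pass in the neighbours. Tcf7l2, at 1.08 ± 0.225 around Aqp4-low glia and 0.942 ± 0.209 around astrocytes, did pass as higher with means and medians swapped (8 of 8 sections, exact permutation, adjusted p = 0.0102) and without male replicate 1 (6 of 6 sections, exact permutation, adjusted p = 0.0409).

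The share of Aqp4-low glia among all cells past the Slc1a3 and Sox9 limits fell off with distance from Ezr-high cells. It was 43.0% ± 6.42 within 50 units, 30.2% ± 11.3 from 50 to 100, 17.0% ± 7.48 from 100 to 200, 10.5% ± 3.14 from 200 to 400, 9.49% ± 2.72 from 400 to 800 and 7.54% ± 4.28 beyond 800 units (SD, n = 8 sections). The nearest bin, at 32.3% to 50.7%, lay above the 6.67% to 15.4% of the bin from 200 to 400 units in all sections. Beyond 200 units neighbouring bins differed by less than their spread. Sfrp1 in Aqp4-low glia fell off along the same distance, from a section median of 2.35 counts per 100 within 50 units to 0.203 beyond 800 units. In astrocytes the same bins gave 1.37 and 0.207.

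**Figure D3:**
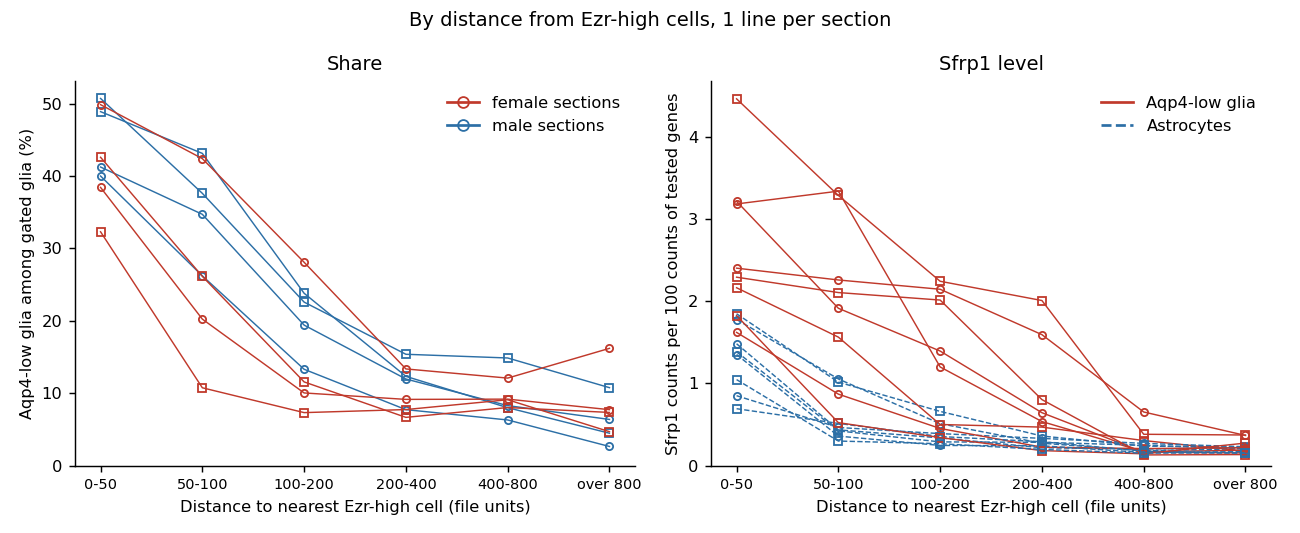
Both panels give the distance to the nearest Ezr-high cell in file units on the horizontal axis, with one line per section. The left panel shows the percentage of Aqp4-low glia among gated glia (circles coverslips 3 and 1, squares coverslips 4 and 2) and the right panel Sfrp1 counts per 100 counts of the tested genes in Aqp4-low glia (solid) and astrocytes (dashed). The share lies between 32.3% and 50.7% within 50 units and between 2.65% and 16.2% beyond 800 units.

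Gene levels were compared between the classes on counts summed per coverslip, with the coverslip as a block. A gene was called if edgeR's quasi-likelihood test against a 1.5-fold difference gave a Benjamini-Hochberg adjusted p under 0.05 and if, in the class where it was higher, every coverslip gave it more counts per cell than any of the 40 blanks. Of 134 genes, 11 were higher in Aqp4-low glia (8.21%) and 12 lower (8.96%), and 102 lay above the blanks. Counts of calls within the gene lists below are to be read against these shares. Over the 134 genes the log2 differences had a median of 0.14. Members were chosen by counts of the same cells, so genes whose counts go with Aqp4, Csf1r, Pdgfra or Cldn5 were bound to differ to some extent.

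Of the markers that name this class, Vim and Sox2 were not used by the limits. Vim, an intermediate filament of radial glia and immature astrocytes, was at 2.10 and 2.44 counts per 100 on the female and 2.49 and 2.40 on the male coverslips in Aqp4-low glia, against 1.66 and 1.70 on the female and 1.70 and 1.58 on the male coverslips in astrocytes. The 2 groups did not overlap, and both lay above the 0.756 ± 0.0279 of all remaining cells. The log2 difference of 0.50 ± 0.083 (SE) did not pass the test against 1.5-fold in edgeR (adjusted p = 1). It passed at 0.79 among cells of 150 to 250 gene counts (edgeR adjusted p = 0.00895). After thinning to 100 counts and gating again it passed at 0.91 (edgeR adjusted p = 6.22e-06). Sox2, a transcription factor of neural stem and glial cells, averaged 3.83 ± 0.304 counts per 100 in Aqp4-low glia and 3.24 ± 0.145 in astrocytes, a log2 difference of 0.24 ± 0.086 that did not pass, also with depth matched. Against no difference both were higher (edgeR adjusted p = 1.29e-08 for Vim and 0.00892 for Sox2), on 4 of 4 coverslips each. That test called many genes, 51 of 134 as higher and 31 as lower, and the middle value of the tested genes was itself at 0.14. Sox2 fell to 0.12 with TMM factors, 0.061 with the volume offset and 0.15 with DESeq2, and Vim to 0.38, 0.33 and 0.42. The rise of Sox2 was therefore not set apart from the shift of the panel. Because the differences were this small over all members, the class is called by its rule, Aqp4-low glia.

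The other progenitor genes of the panel did not move one way. Of 6 tested genes of a 21-gene progenitor list, 1 was higher, 2 were lower and 3 did not pass (8.21% higher and 8.96% lower over all genes). Their median log2 difference was 0.19 against 0.14 over all genes. Emx2, a homeobox factor of dorsal forebrain progenitors, was the higher one, at 0.258 and 0.302 counts per 100 on the female and 0.172 and 0.217 on the male coverslips in Aqp4-low glia, against 0.146 and 0.143 on the female and 0.110 and 0.150 on the male coverslips in astrocytes. It was higher on 4 of 4 coverslips, with a log2 difference of 0.78 ± 0.098 and an edgeR adjusted p of 0.0379, and it lost its call under several settings, among them thinning (0.63, adjusted p = 0.983) and leaving out any of 3 coverslips. Gli3, a transcription factor of the hedgehog pathway, averaged 0.518 ± 0.0217 in Aqp4-low glia and 0.467 ± 0.0268 in astrocytes and did not pass. Id1, an inhibitor of differentiation factors that responds to BMP signals, was lower, at 0.262 and 0.289 on the female and 0.212 and 0.256 on the male coverslips in Aqp4-low glia, against 0.560, 0.660, 0.519 and 0.593 in astrocytes on the same coverslips. Its log2 difference of -1.20 ± 0.091 was the largest of the lower calls in edgeR (adjusted p = 8.23e-11). Etv4, an ETS factor downstream of FGF signals, averaged 0.447 ± 0.0332 in Aqp4-low glia and 0.764 ± 0.0847 in astrocytes, a log2 difference of -0.77 ± 0.087 (edgeR adjusted p = 0.0265). The call of Etv4 was lost after thinning (-0.61, adjusted p = 1), with no coverslip block (adjusted p = 0.125), with Meg3 under 5% (adjusted p = 0.475) and without male replicate 1, female replicate 1 or female replicate 2 (adjusted p = 0.162, 0.0847 and 0.303).

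Secreted Wnt antagonists gave the highest differences. Sfrp1, a secreted protein that binds Wnt ligands, was at 1.15 and 1.16 counts per 100 on the female and 1.81 and 1.31 on the male coverslips in Aqp4-low glia, against 0.361 and 0.334 on the female and 0.383 and 0.348 on the male coverslips in astrocytes. The 2 classes did not overlap, and the remaining cells averaged 0.287 ± 0.0199. The log2 difference was 1.91 ± 0.087, a 3.75-fold higher level, with an edgeR adjusted p of 2.71e-42. The size of this p depended on the setting, with edgeR adjusted p-values of 2.65e-05 with no coverslip block and 2.98e-07 with sections as the unit. Frzb, another secreted antagonist of the same family, was at 0.226 and 0.143 on the female and 0.105 and 0.112 on the male coverslips in Aqp4-low glia, against 0.0675, 0.0468, 0.0471 and 0.0508 in astrocytes, a 2.69-fold difference (edgeR adjusted p = 9.01e-15). Both passed with the test against a 2-fold difference and were the only genes to do so. Of 7 tested antagonists 2 were higher, none was lower and 5 did not pass, against 8.21% higher and 8.96% lower over all genes. Their median log2 difference was 0.46, and 4 of the 7 lay above the blanks.

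Among Wnt receptors 2 of 18 tested were higher, 1 was lower and 15 did not pass, with a median log2 difference of 0.01. These counts lay near the shares over all 134 genes, 8.21% higher and 8.96% lower. Fzd1, a frizzled receptor, was at 1.19 and 0.777 on the female and 0.776 and 0.828 on the male coverslips in Aqp4-low glia, against 0.489, 0.345, 0.424 and 0.431 in astrocytes, a log2 difference of 1.07 ± 0.086 (edgeR adjusted p = 6.11e-08). Fzd5, another frizzled receptor, averaged 0.225 ± 0.0684 in Aqp4-low glia and 0.102 ± 0.00983 in astrocytes, a log2 difference of 1.09 ± 0.10 (edgeR adjusted p = 9.49e-07). Its value on the first male coverslip, 0.322 in Aqp4-low glia, stood above the 0.163 to 0.211 of the other 3. Adgra2, a co-receptor for Wnt7 ligands in brain endothelium, was the lower one and is taken up with the vascular genes below.

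Of 19 tested ligands and secretion factors only Wnt8b was called, as higher, and 9 of the 19 lay above the blanks. Over all 134 genes 8.21% were higher and 8.96% lower. Wnt8b, a ligand of the dorsomedial forebrain including the hippocampal primordium, averaged 0.155 ± 0.0187 in Aqp4-low glia and 0.0767 ± 0.00615 in astrocytes, a 2.02-fold difference (edgeR adjusted p = 4.4e-05) higher on 4 of 4 coverslips. Of 15 intracellular Wnt genes none was higher and 1 was lower (8.21% and 8.96% over all genes), with a median log2 difference of 0.29. That gene was Tcf7, a transcription factor acting with beta-catenin, at 0.0722 ± 0.00676 in Aqp4-low glia and 0.126 ± 0.00504 in astrocytes (edgeR adjusted p = 0.0266). With the limits on Csf1r, Pdgfra and Cldn5 applied to astrocytes too, the difference of Tcf7 was -0.35 and did not pass.

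Among cell surface proteoglycans and scaffold proteins 3 of 12 were higher and 1 was lower, against 8.21% and 8.96% over all genes. Gpc2, a glypican of developing neurons, averaged 0.283 ± 0.111 in Aqp4-low glia and 0.150 ± 0.0271 in astrocytes (log2 difference 0.85 ± 0.097, edgeR adjusted p = 0.00453), and Ezr 1.48 ± 0.142 and 0.863 ± 0.0574 (0.77 ± 0.083, edgeR adjusted p = 0.0171). Gpc5, a glypican of astrocytes, was lower, at 0.687 ± 0.120 in Aqp4-low glia and 1.35 ± 0.173 in astrocytes (-0.99 ± 0.084, edgeR adjusted p = 3e-06). Thinning ended the calls of Gpc2, at 0.47 (adjusted p = 1), Ezr, at 0.72 (adjusted p = 0.0503), and Gpc5, at -0.68 (adjusted p = 0.171). Gpc2 and Ezr also lost their calls with the volume offset, TMM factors, DESeq2, no coverslip block and without female replicate 2, Gpc2 without female replicate 1, and Ezr without male replicate 1, with the same limits on astrocytes and within 200 units of Ezr-high cells. Thrsp, a regulator of lipid synthesis in the Spot14 family known from slowly dividing adult neural progenitors, averaged 0.207 ± 0.0263 in Aqp4-low glia and 0.109 ± 0.0172 in astrocytes. Its log2 difference of 0.93 ± 0.10 had an edgeR adjusted p of 0.000558 and was positive on 4 of 4 coverslips. Thrsp kept its call after thinning. It lost it with the volume offset (edgeR adjusted p = 0.0806), with no coverslip block (0.0546) and among cells with fewer than 5 Aqp4-low neighbours (0.959).

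Genes of mature astrocytes were lower or did not pass. Of 5 tested genes of the list, 2 were lower, none was higher and 3 did not pass (8.96% lower and 8.21% higher over all genes). Their median log2 difference was -0.61 against 0.14 over all genes. Gfap, the intermediate filament of astrocytes and of adult-type neural stem cells, was at 2.79 and 2.62 on the female and 3.06 and 3.77 on the male coverslips in Aqp4-low glia, against 5.21, 4.72, 5.49 and 6.21 in astrocytes (log2 difference -0.83 ± 0.087, edgeR adjusted p = 0.00434). Aldh1l1, a folate enzyme used as a general astrocyte marker, averaged 1.32 ± 0.0940 in Aqp4-low glia and 2.51 ± 0.381 in astrocytes (-0.91 ± 0.084, edgeR adjusted p = 0.000104). Apoe, a lipid carrier, averaged 15.7 ± 2.32 in Aqp4-low glia and 22.2 ± 2.34 in astrocytes. Glul, the glutamine synthetase, averaged 3.02 ± 1.13 and 4.49 ± 1.03, and Aldoc, an aldolase of astrocytes, 3.49 ± 0.614 and 3.68 ± 0.553, Aqp4-low glia first, and none of these 3 passed. Among cells of 150 to 250 gene counts Gfap had a log2 difference of -0.26 and did not pass, and Aldh1l1 was at -0.94 (edgeR adjusted p = 1e-05). After thinning to 100 counts neither passed, with Gfap at -0.17 (adjusted p = 1) and Aldh1l1 at -0.66 (adjusted p = 0.186).

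**Figure D4:**
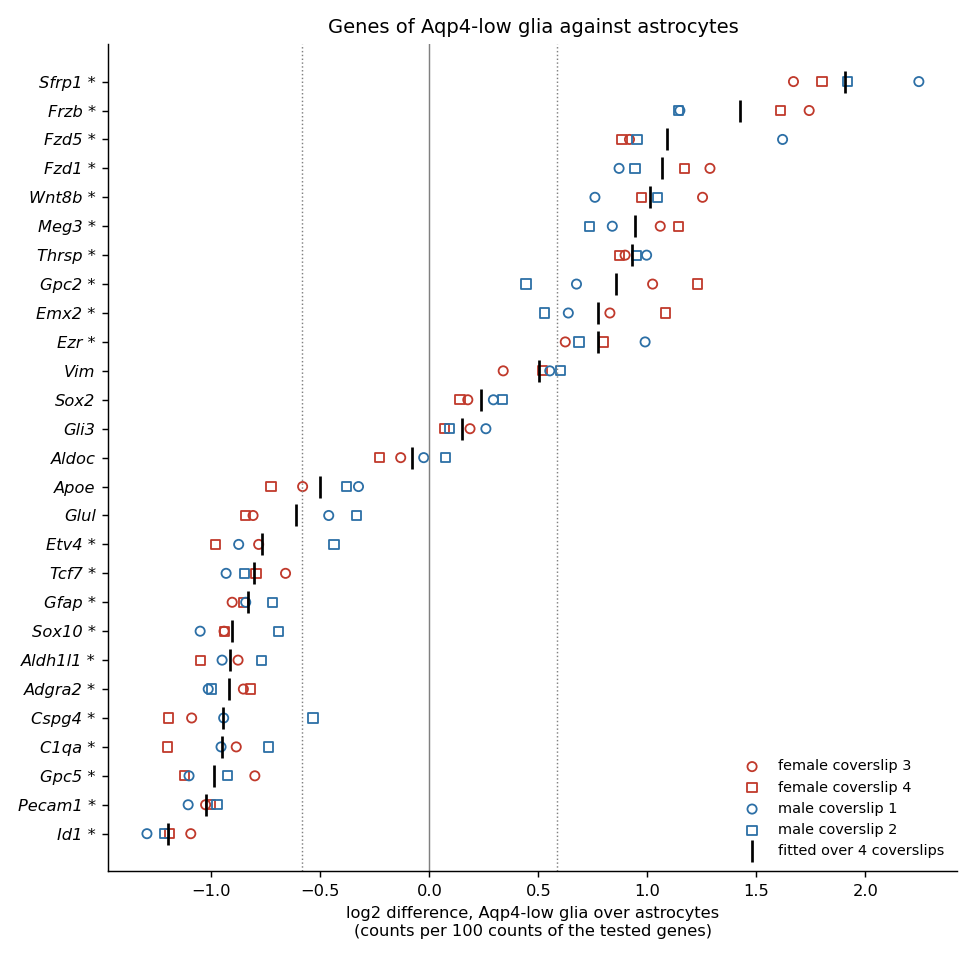
Log2 differences of Aqp4-low glia over astrocytes, in counts per 100 counts of the tested genes, for the 27 genes named by rule. Open symbols are the 4 coverslips, bars the fit over them, dotted lines the tested 1.5-fold difference and asterisks called genes. Sfrp1 has the highest fitted value, 1.91, and Id1 the lowest, -1.20.

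Several lower calls were of genes of other cell types. Pecam1 of endothelium (log2 difference -1.03 ± 0.10), C1qa of microglia (-0.95 ± 0.10), Cspg4 and Sox10 of the oligodendrocyte lineage (-0.94 ± 0.097 and -0.91 ± 0.099) and Adgra2 (-0.92 ± 0.10) had edgeR adjusted p-values of 2.3e-05, 0.000499, 0.000212, 0.00101 and 0.000953. The limits on Csf1r, Pdgfra and Cldn5 applied to members and not to astrocytes, and 7.59% to 10.4% of astrocytes per coverslip exceeded at least 1 of them. With the same limits on astrocytes the differences of Pecam1, Cspg4, Adgra2 and Sox10 turned positive, at 0.29, 0.15, 0.24 and 0.17, and C1qa was at -0.67, none passing. The 5 lower calls that were left under that setting were all among the 12, and 8 of the 11 higher genes were still called. Summed over 7 microglial genes the level was 0.483 to 0.544 in Aqp4-low glia, 0.645 to 0.724 in astrocytes and 0.783 to 1.01 in the remaining cells. Over 4 oligodendrocyte genes it was 0.575 to 0.656, 0.767 to 0.946 and 1.18 to 1.35 in the same order. Only 3 of the 7 microglial and 3 of the 4 oligodendrocyte genes lay above the blanks, and neither border-cell gene tested did.

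Of 4 tested neuronal genes 1, Meg3, was higher in Aqp4-low glia, and of 5 excitatory and 5 inhibitory genes none was called. The shares over all genes were 8.21% higher and 8.96% lower. Meg3 was at 9.55 and 11.6 counts per 100 on the female and 8.05 and 8.00 on the male coverslips in Aqp4-low glia, against 4.58, 5.24, 4.50 and 4.81 in astrocytes and 31.1 ± 1.94 in the remaining cells. The log2 difference was 0.94 ± 0.092 (edgeR adjusted p = 0.000104). Summed over 4 neuronal genes the level was 12.2 to 16.4 in Aqp4-low glia and 7.65 to 8.60 in astrocytes. Meg3 itself was the largest part of this sum, and the other 3 genes were not called. Over 5 inhibitory genes the sum was 1.37 to 2.23 and 1.12 to 1.44. Over 5 excitatory genes the sum ran lower, 1.504 to 1.95 in Aqp4-low glia and 1.75 to 2.07 in astrocytes, and was higher in Aqp4-low glia on 1 of 4 coverslips. Among cells with Meg3 under 5% of their gene counts, an alternative chosen after these values were seen, 10 of the 11 higher genes were still called, and Sfrp1 had a log2 difference of 2.15.

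Members were not uniform. In 5302 of 12535, between 36.3% and 52.5% per section, at least 5 of the 10 nearest gated glia were themselves Aqp4-low, which picked out the bands and masses of the map. This split was made after the map was seen, so its levels are given as a description with no test. Sfrp1 averaged 2.29 ± 0.984 counts per 100 in these banded members, 0.945 ± 0.284 in the scattered members and 0.352 ± 0.0388 in astrocytes (SD, n = 8 sections). Fzd1 averaged 1.29 ± 0.407, 0.624 ± 0.0855 and 0.412 ± 0.0838 in the same order, and Vim 3.26 ± 0.361, 1.80 ± 0.240 and 1.65 ± 0.0900. The lowest banded value of Vim, 2.60, lay above the highest scattered value, 2.01, whereas scattered members and astrocytes overlapped. Astrocytes were taken here at all distances from Ezr-high cells, and Vim went with that distance in both classes, as given below. Sox2 averaged 4.47 ± 0.448, 3.41 ± 0.298 and 3.21 ± 0.265, and Gli3 0.698 ± 0.120, 0.419 ± 0.0282 and 0.463 ± 0.0341.

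Emx2 averaged 0.332 ± 0.164, 0.174 ± 0.0314 and 0.135 ± 0.0238, but in section 1 of the first male coverslip it was lower in banded than in scattered members, 0.0942 against 0.192. Id1 and Etv4 were not summarised for this split. Meg3 averaged 4.27 ± 1.67 in banded members, 11.96 ± 2.01 in scattered members and 4.77 ± 0.455 in astrocytes, and the banded and scattered ranges, 2.28 to 7.05 and 9.86 to 15.8, did not overlap. Aldh1l1 averaged 1.06 ± 0.262, 1.59 ± 0.357 and 2.57 ± 0.523. Gfap ran otherwise, at 4.06 ± 0.624, 2.51 ± 0.551 and 5.36 ± 0.852. Apoe averaged 15.9 ± 4.24, 16.0 ± 2.76 and 22.4 ± 2.90. Median gene counts were 151 ± 44.5 in banded and 159 ± 34.7 in scattered members.

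The class differences themselves changed with distance from Ezr-high cells. Within 200 units there were 8039 Aqp4-low glia and 17361 astrocytes, and beyond 400 units 2830 and 25592. An edgeR test of the class by distance term, added after the map was seen, called 52 of 134 genes (38.8%) as more in favour of Aqp4-low glia near than far and 13 (9.7%) as less so. The median of this term over all genes was 0.25, so each value is to be read against that shift. With TMM factors, which put the median at -0.01, the counts were 24 and 21. Ezr, the gene by which the distances were drawn, is among the 52 and is not read as a result. Within 200 units 10 genes were higher (7.46%) and 10 lower (7.46%) against 1.5-fold, and beyond 400 units 5 were higher (3.73%) and 6 lower (4.48%). Of the 11 genes higher over all cells, 8 were called within 200 units and 1, Meg3, beyond 400 units. A lost call was not always a lost difference. Gpc1, a glypican among the 11, had log2 differences of 0.78 near and 0.72 far (edgeR adjusted p = 0.0202 and 0.136). Its near minus far term of 0.058 ± 0.10 did not pass (edgeR adjusted p = 0.645).

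Sfrp1 near Ezr-high cells was at 2.02 ± 0.532 counts per 100 in Aqp4-low glia and 0.689 ± 0.174 in astrocytes. Far from them it was at 0.256 ± 0.119 and 0.201 ± 0.0303, which overlapped (SD, n = 4 coverslips). The near minus far term was 1.28 ± 0.21 (edgeR adjusted p = 0.000476), and 1.01 with TMM factors. Fzd1 was at 1.245 ± 0.321 and 0.544 ± 0.103 near, against 0.351 ± 0.0658 and 0.364 ± 0.0510 far (term 1.24 ± 0.12, edgeR adjusted p = 1.81e-05). Emx2 had a log2 difference of 0.84 near and -0.84 far, and Gli3 of 0.38 near and -0.70 far, with terms of 1.68 ± 0.17 and 1.08 ± 0.11 (edgeR adjusted p = 2.01e-05 for both). Terms of Fzd5, Frzb, Wnt8b, Thrsp and Gpc2 lay between 0.94 and 1.34, all called, and that of Wnt8b did not pass with TMM factors (edgeR adjusted p = 0.0541). Vim and Sox2 had terms of 0.52 ± 0.13 and 0.40 ± 0.12 (edgeR adjusted p = 0.00491 and 0.0134), which neither TMM factors nor the limit on Meg3 left called. Vim was at 3.30 ± 0.326 in near Aqp4-low glia and 2.84 ± 0.451 in near astrocytes, against 0.972 ± 0.155 and 1.18 ± 0.0847 far. It was thus higher near Ezr-high cells in both classes. The class differences of Vim, 0.23 near and -0.29 far (log2), did not pass the 1.5-fold test.

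Far from Ezr-high cells the 5 genes called higher were Meg3, Slc17a6, Tcf7l2, Wnt3 and Peg3. Peg3, an imprinted gene, had log2 differences of 0.56 near and 0.78 far, and its term of -0.23 ± 0.11 did not pass (edgeR adjusted p = 0.119). Meg3 was at 15.0 ± 2.64 counts per 100 in far Aqp4-low glia and 5.44 ± 0.421 in far astrocytes, against 5.45 ± 1.95 and 3.40 ± 0.653 near. The 4 genes given next, of which Fzd10 was not called far, were picked after their values were seen. Slc17a6, the vesicular glutamate transporter of thalamic and other subcortical neurons, was at 0.550 ± 0.0360 in far Aqp4-low glia and 0.214 ± 0.0150 in far astrocytes, and Tcf7l2, a Wnt effector known from thalamic neurons, at 2.58 ± 0.735 and 1.20 ± 0.249. Wnt3, a ligand, was at 0.294 ± 0.0631 and 0.133 ± 0.0181. The near minus far terms of these 3 lay between -1.33 and -1.16. Fzd10 was lower in Aqp4-low glia near, 0.125 ± 0.0182 against 0.296 ± 0.0281 in astrocytes, and at 0.699 ± 0.140 and 0.491 ± 0.05003 far. Gfap and Id1 were lower in Aqp4-low glia at both distances, with log2 differences of -1.07 and -1.03 near and -2.01 and -1.70 far, all past the 1.5-fold test. Of the 12 genes lower over all cells, 9 were called near and 5 far. Aldh1l1, Etv4 and Gpc5 were called near, at -1.03, -0.92 and -0.96, but not far, at -0.44, -0.32 and -0.64. Their near minus far terms were -0.58, -0.60 and -0.32 (edgeR adjusted p = 0.00234, 0.00224 and 0.0304).

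Levels changed by steps with the Aqp4 count over all gated glia. Cells with 0, 1, 2, 3 to 4, 5 to 9 and 10 or more Aqp4 counts held Sfrp1 at 1.46, 1.27, 1.05, 0.723, 0.417 and 0.223 counts per 100 as means of 4 coverslips. Fzd1 ran from 0.998 to 0.376 and Vim from 2.55 to 1.35 over the same bins. Aldh1l1 ran the other way, from 1.22 to 2.92. Gfap stayed between 3.01 and 3.40 up to 9 Aqp4 counts and was at 7.11 ± 0.863 in the last bin. Meg3 was highest in cells with 1 Aqp4 count, at 9.95, and lowest in the last bin, at 3.29. Raw Aqp4 counts rise with the depth of a cell, so these bins also order the cells by depth.

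**Figure D5:**
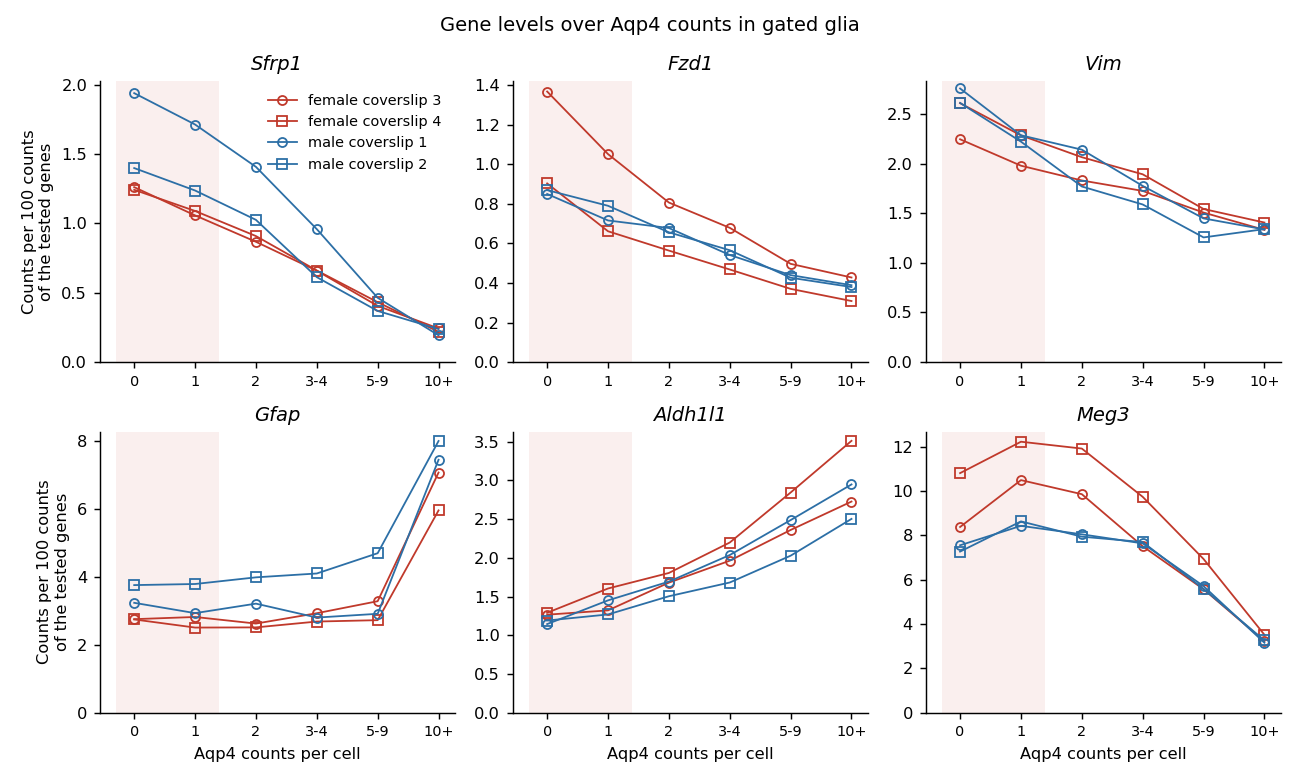
Each panel gives one gene in counts per 100 counts of the tested genes over bins of the Aqp4 count per cell, in all cells past the Slc1a3 and Sox9 limits that met the limits on Csf1r, Pdgfra and Cldn5. Lines are the 4 coverslips and the shaded bins are Aqp4-low glia. Sfrp1 runs from a mean of 1.46 to 0.223, while Gfap is at 7.11 only in the bin of 10 or more.

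The share of Aqp4-low glia did not differ detectably between the sexes. They made up 1.49% and 1.74% of all kept cells on the female and 1.32% and 1.69% on the male coverslips, which overlapped, with 894 to 2289 cells per section. Among cells past the Slc1a3 and Sox9 limits they made up 15.9% on average on female and 16.8% on male coverslips (p = 0.667, exact permutation of 2 against 2 coverslips, smallest possible 0.333). After thinning to 100 counts the means were 36.9% and 29.6% with p = 0.333 in the same exact permutation test, the smallest the design allows.

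Within Aqp4-low glia no gene was called between the sexes by edgeR (0 of 134 in either direction), while 20 genes had a p under 0.05 before adjustment; by DESeq2, 1 was higher and 2 were lower in female cells. The smallest p was that of Gpc2, at 0.351 and 0.398 counts per 100 on the female and 0.227 and 0.156 on the male coverslips. The groups did not overlap, and the log2 difference of 0.97 ± 0.23 had an adjusted p of 0.0552. The difference between Aqp4-low glia and astrocytes, in contrast, differed between the sexes for 15 genes (11.2%) with a higher and 7 (5.22%) with a lower value in females by edgeR's interaction test, and for none after thinning.

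Of these, Sdc4, a syndecan, had the smallest adjusted p. Its class difference averaged -0.70 on female and -0.14 on male coverslips (log2), with an interaction of -0.56 ± 0.095 (edgeR adjusted p = 7.22e-05). Gad1, an enzyme of GABA synthesis, averaged 0.87 and 0.26 (0.61 ± 0.11, adjusted p = 2e-04), Bcl11b 0.63 and 0.02 (0.60 ± 0.12, adjusted p = 0.000305) and Glul -0.83 and -0.40 (-0.43 ± 0.083, adjusted p = 0.000305), female first. Apc2, a relative of the Wnt scaffold Apc made in neurons, averaged 0.24 and -0.15 (0.39 ± 0.089, adjusted p = 0.00219). Sfrp1 and Meg3 were among the called genes. After thinning to 100 counts before gating these 5 interactions lay between -0.23 and 0.40 with adjusted p-values of 0.236 to 0.665. Female coverslips were also the deeper ones, with medians of 175 and 268 gene counts per cell over all cells against 123 and 147 on the male coverslips, so sex and depth cannot be told apart.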

How the data were processed

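The authors deposited 1 row per cell with raw, unnormalized counts of 140 genes and 40 blank barcodes, per the file headers, which also give other measures (the cell's volume and centre) without a unit. Decoding and segmentation software is not given in the sources used here. The members, gene lists and settings were chosen with earlier results of these data known. Cells with at least 20 gene counts were kept, 794833 of 863580, and sections were taken as the 2 largest connected pieces of 100-unit squares with at least 4 cells. Counts were summed per coverslip and class and tested with edgeR 4.0.16 in R (glmQLFit, glmTreat or glmQLFTest, Benjamini-Hochberg), offset by the total over the tested genes; DESeq2 1.42.0 was an alternative. Position was tested by exact sign flips over sections in Python with scipy. Scripts were tested on simulated data. Named genes were all tested progenitor and astrocyte maturation genes, the 8 largest calls in each direction and up to 3 calls per other list. For the sexes they were the 5 calls with the smallest adjusted p, or the gene with the smallest p. Doublets were not searched for.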

Additional observations from a re-analysis of the deposited data

Results flagged for a closer look

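Of 63 groups of 4 to 8 values examined for a single value far from the others, 2 held one, and chance gives about 1 in 20. One was the median distance of Aqp4-low glia to the nearest cell with 3 or more Lyve1 counts, which was 601 units in section 1 of the first male coverslip, far above the other sections. The other was the class difference of Fzd5, which was 1.62 (log2) on the first male coverslip and lay between 0.88 and 0.95 on the other 3. The class difference itself differed between the sexes by edgeR's interaction test (female minus male, log2) for Sdc4 at -0.56, Gad1 at 0.61, Bcl11b at 0.60, Glul at -0.43 and Apc2 at 0.39. None of these 5 passed after thinning to 100 counts and gating again.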

How the results depend on the processing

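The 11 higher and 12 lower genes of the class comparison were recomputed under the alternatives. Higher calls numbered 5 with cell volume as the offset, 7 with TMM factors, 7 with DESeq2, 51 against no difference, 2 against 2-fold, 6 with no replicate block (the coverslip), 5 beyond 400 units from Ezr-high cells and 6 among cells with fewer than 5 Aqp4-low neighbours. Lower calls numbered 31 against no difference, 0 against 2-fold, 5 with the same limits on astrocytes, 4 at 150 to 250 counts, 1 after thinning, 6 with no replicate block, 6 beyond 400 units and 7 among cells with fewer than 5 Aqp4-low neighbours. Leaving out 1 coverslip gave 7 to 11 higher and 9 to 12 lower, with 7 higher without female replicate 2. The distance, neighbour and Meg3 settings were chosen after seeing the data. Beyond 400 units the log2 difference reversed to -0.29 for Vim, -0.84 for Emx2, -0.70 for Gli3, -0.074 for Fzd5, -0.059 for Fzd1, -0.023 for Wnt8b, -0.24 for Thrsp and -0.014 for Gpc2. It was -0.48 for Ezr, the gene by which that distance was drawn. Gli3 was also at -0.024 with the volume offset and -0.12 among cells with fewer than 5 Aqp4-low neighbours. Aldoc was at 0.052 at 150 to 250 counts, 0.14 after thinning, 0.017 within 200 units and 0.049 with Meg3 under 5%. With the same limits on astrocytes Pecam1 was at 0.29, Cspg4 at 0.15, Adgra2 at 0.24 and Sox10 at 0.17, and thinning gave 0.019 for Pecam1 and 0.033 for Adgra2. Near minus far calls were 24 higher and 21 lower with TMM factors, and 39 to 53 and 10 to 12 with 1 coverslip left out.

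Between the sexes the counts of 0 higher and 0 lower (edgeR, 20 genes at an unadjusted p under 0.05) became 1 and 1 with TMM factors, 1 and 2 with DESeq2 and 6 and 3 with sections as the unit, where the 2 sections of a coverslip are not independent; they stayed 0 with 1 coverslip left out. No paired analysis was possible because female and male coverslips share no animal. The interaction's 15 higher and 7 lower became 8 and 3 with the volume offset, 0 and 0 after thinning and 5 and 2 with sections as the unit. Its higher count was 3 with TMM factors and 6 with DESeq2. With 1 coverslip left out it ranged from 3 to 17 higher and 3 to 9 lower, at 3 and 4 without female replicate 1 and 3 and 3 without female replicate 2.

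With coverslips as the unit 0 measures of position and 0 of neighbours passed, the smallest exact p being 0.125; with 1 coverslip left out 4 and 8 to 9 passed. Neighbour differences reversed, with means and medians swapped, to 0.0513 for Rorb, 0.0253 for Slc17a6, 0.0250 for Gad2 and 0.00684 for Etv4. Etv4 was at 0.000231 with Aqp4 of 0 and, with 1 coverslip left out, between -0.00783 and 0.00338, positive without male replicate 1 and without female replicate 1 (0.0012). Slc17a6 was at 0.0519 at 150 to 250 counts, 0.00903 without low-signal squares and, with 1 coverslip left out, between -0.0152 and 0.0295, the last without male replicate 1. The share of kept cells was 1.81% after thinning and 0.772% with Aqp4 of 0, and of gated cells 33.2% and 8.06%; with 1 coverslip left out it was 1.501% to 1.64% and 15.5% to 17.2%. The cause of these changes was not tested.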
